A study of Mus musculus with 24 samples.

Results

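Müller glia are the radial glia of the retina. They take up glutamate released by neurons and turn it into glutamine, carry water and ions between the retinal layers and the vitreous, and secrete lipoproteins that move lipid between cells. The 9 genes described here are markers and effectors of these functions: Glul and Slc1a3 for glutamate, Aqp4 and Car2 for water and bicarbonate, Apoe and Clu for lipid and protein transport outside the cell, Vim for the cytoskeleton, and Sox2 and Sox9 for glial identity. These members were taken by gene name from a table of 56748 genes, and all 9 were measured in all 24 libraries, from 234 reads (Sox2 in an eye cup) to 240039 reads (Apoe in an eye cup) per library. None of them is limited to Müller glia: as general background, Apoe, Clu and Sox9 are also made by the retinal pigment epithelium (RPE), Vim by fibroblasts, endothelium and lens, and Car2 by red blood cells.

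The libraries came from the neural retina and the remaining eye cup (RPE, choroid and sclera) of 12 mice on a C57BL/6J background. PRDM13-OE mice carried 1 copy of a Rosa26 knock-in in which dox turns on human PRDM13, a transcriptional repressor, in a tissue-unrestricted manner through a transactivator under the EF-1α promoter. Wildtype littermates had no knock-in. From P28, mice of both genotypes received 2 mg/ml doxycycline (dox) with 10% sucrose in their drinking water over 72 hours, or were left untreated, with 3 mice in each of the 4 groups and both tissues from every mouse. The untreated mice are not stated to have received sucrose, so dox and sucrose cannot be told apart.

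Levels are given as CPM (counts scaled to the library total, with TMM factors, which correct for differences in library composition). Libraries held 15825059 to 24908314 counted reads. Labels were checked first. The human transgene was not analysed here. A mouse gene model, Gm13394, was at 205 to 549 CPM in 10 of the 12 libraries labelled PRDM13-OE and at 2.08 to 8.10 CPM in wildtype libraries. In the mouse labelled PRDM13-OE untreated 1 it was at the wildtype level in both tissues (4.57 CPM in the retina and 3.35 CPM in the eye cup). Comparisons between groups that use this mouse are given with and without it by edgeR. Some alternative settings are given only with it. Among the retinas, the wildtype dox retinas 1 and 2 also stood apart. In these, 17 lens genes summed to 11284 and 4763 CPM, against 5.04 to 875 CPM in the other 10 retinas. All 7 rod markers were detected in every library. They summed to 43101 to 64716 CPM in retinas and 2638 to 45228 CPM in eye cups, so the eye cups held varying amounts of rod RNA. The 11 RPE and pigment genes summed to 59.9 to 381 CPM in retinas and 7967 to 52750 CPM in eye cups.

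Glul, which encodes glutamine synthetase, was the most abundant of the 9 genes per unit of length in the retina. In untreated wildtype retinas, the deposited FPKM values, which correct for gene length, were 788 ± 57.1 (SD, n = 3) for Glul. Apoe, the main lipid-carrying apolipoprotein of glia, followed at 406 ± 32.4 FPKM. Car2, a carbonic anhydrase, was at 215 ± 12.6 FPKM and Clu, the secreted chaperone clusterin, at 211 ± 14.7 FPKM, and these 2 genes overlapped between retinas. Vim (vimentin) was at 38.4 ± 3.56 FPKM and Slc1a3 (the glutamate transporter GLAST) at 33.7 ± 2.50 FPKM, again with overlap. Aqp4, the water channel of the glial endfeet, was at 20.6 ± 1.31 FPKM and Sox2 at 18.8 ± 0.27 FPKM. Sox9 was lowest at 6.27 ± 0.62 FPKM. All other neighbours in this order were separated in every retina.

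In untreated wildtype eye cups the order of FPKM levels was different. Apoe came first at 4537 ± 1024 FPKM (SD, n = 3), followed by Clu at 1643 ± 391 FPKM, Glul at 638 ± 61.2 FPKM and Vim at 247 ± 78.7 FPKM, with no overlap between neighbours. Car2 (44.7 ± 26.2 FPKM), Sox9 (25.7 ± 4.31 FPKM), Slc1a3 (19.1 ± 9.29 FPKM), Sox2 (11.9 ± 4.65 FPKM) and Aqp4 (6.84 ± 2.01 FPKM) each overlapped with the next.

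The upstream sequences of 3 members are shown because Glul and Sox2 were higher in PRDM13-OE than in wildtype retinas with dox, whereas Slc1a3, which acts next to Glul in the glutamate pathway, was lower. All 3 calls were lost with the summed lens level as a covariate, where 2.44% of all genes were called, against 12.5% without it. The log2 fold changes were then 0.0075 for Glul, 0.40 for Sox2 (0.36 without the covariate) and -0.19 for Slc1a3. Lens level did not overlap between these groups, so lens level and group cannot be told apart. Each sequence shown is the 250 bases before a RefSeq transcript start, 5′ to 3′ on the gene's strand. RefSeq's table (GRCm38.p6) held 5 of the 9 members (Glul, Slc1a3, Apoe, Vim and Sox2), and the bases shown matched GRCm39 exactly at 1 position each: chr1:153775425-153775674 (plus) for Glul, chr3:34703894-34704143 (plus) for Sox2 and chr15:8740292-8740541 (minus) for Slc1a3. Capitals mark matches, on either strand, to CANNTG (the E-box bound by basic helix-loop-helix factors), to ACAAAG or ACAATG (core motifs of SOX factors) and to CCAAT.
Glul: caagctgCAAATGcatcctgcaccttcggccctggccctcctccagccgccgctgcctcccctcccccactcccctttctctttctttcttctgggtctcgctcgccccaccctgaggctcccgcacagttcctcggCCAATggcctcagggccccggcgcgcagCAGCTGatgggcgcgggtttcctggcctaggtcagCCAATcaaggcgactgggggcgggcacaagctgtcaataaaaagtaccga
Sox2: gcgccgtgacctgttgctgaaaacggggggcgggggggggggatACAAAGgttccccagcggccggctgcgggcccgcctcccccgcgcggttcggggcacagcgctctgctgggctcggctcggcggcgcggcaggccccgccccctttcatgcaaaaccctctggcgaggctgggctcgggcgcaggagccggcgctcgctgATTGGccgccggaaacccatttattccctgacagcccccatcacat
Slc1a3: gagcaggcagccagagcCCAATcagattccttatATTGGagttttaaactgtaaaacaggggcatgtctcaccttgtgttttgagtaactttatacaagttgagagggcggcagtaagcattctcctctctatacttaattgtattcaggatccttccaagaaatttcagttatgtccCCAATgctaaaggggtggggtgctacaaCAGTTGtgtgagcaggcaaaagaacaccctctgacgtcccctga

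CANNTG had 2 matches upstream of Glul, 1 upstream of Slc1a3 and 0 upstream of Sox2, and 66.2% of 32851 upstream sequences of the same length in the table held at least 1. ACAAAG or ACAATG had 1 match upstream of Sox2 and 0 in the other 2, against 25.2% of all upstream sequences. CCAAT had 2 matches for Glul, 1 for Sox2 and 3 for Slc1a3, against 33.8% of all. These matches are a description of the letters in these windows, and the motifs do not overlap in them.

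In GRCm39, the build of the deposited table, Glul (ENSMUSG00000026473) lies on chromosome 1 at 153775690 to 153785469 on the plus strand, and Slc1a3 (ENSMUSG00000005360) on chromosome 15 at 8663608 to 8740248 on the minus strand. Apoe is on chromosome 7 at 19430034 to 19433113 (minus), Clu on chromosome 14 at 66205932 to 66218996 (plus), Vim on chromosome 2 at 13578738 to 13587637 (plus) and Sox9 on chromosome 11 at 112673050 to 112678586 (plus). Sox2, at 34704554 to 34706610, and Car2, at 14951333 to 14965830, are both on chromosome 3 (plus), and Aqp4 is on chromosome 18 at 15522553 to 15544039 (minus). All 9 are annotated as protein coding.

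**Figure D1:**
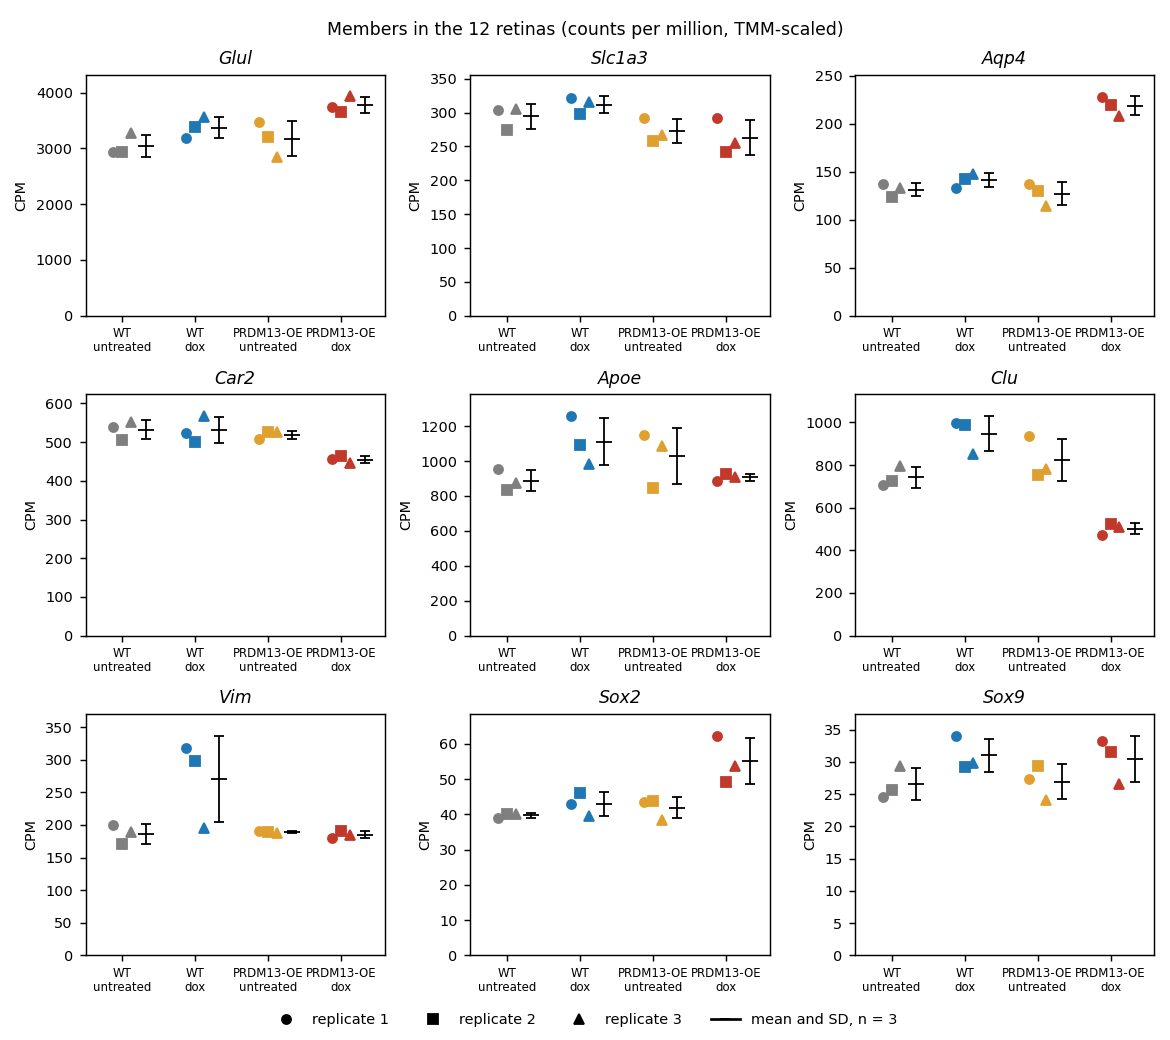
Each panel plots 1 member in the 12 retinas, in TMM-scaled CPM from 0 on the vertical axis, by group, with a symbol for each replicate and the mean and SD beside it. The 3 PRDM13-OE dox retinas lie above all other retinas for Aqp4 and Sox2 and below all others for Clu and Car2, and the wildtype dox retinas 1 and 2 have the highest Vim.

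The comparison of PRDM13-OE with wildtype retinas, both with dox, asks which genes differ once PRDM13 is induced. Of the 9 members, 8 passed an adjusted p of 0.05 in edgeR's quasi-likelihood test, against 12.5% of the 20560 genes tested. Aqp4, Sox2 and Glul were higher (3 members, against 5.01% of all genes), and Clu, Vim, Apoe, Slc1a3 and Car2 were lower (5 members, against 7.51%). None reached the study's cutoff for a differentially expressed gene (DEG), a log2 fold change past 1, which 2.41% of all genes reached. The groups did not overlap for the same 8 members, against 31.6% of all genes.

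For glutamate handling, the 2 members moved in opposite directions. Glul was at 3749, 3651 and 3933 CPM in PRDM13-OE retinas with dox and at 3181, 3377 and 3559 CPM in wildtype retinas with dox. Every PRDM13-OE retina was above every wildtype retina, and the difference was small, 11.9% (log2 fold change 0.16 ± 0.04 SE, adjusted p = 0.0263). With the summed lens level as a covariate over all 12 retinas, its log2 fold change was 0.0075 (adjusted p = 0.987), and -0.021 without the mouse labelled PRDM13-OE untreated 1. Slc1a3 was at 292, 242 and 255 CPM with induced PRDM13 and at 322, 298 and 315 CPM in wildtype. It was 15.6% lower by its fitted fold change of 0.84 (log2 -0.25 ± 0.07 SE, adjusted p = 0.0323), again with no overlap.

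The water channel showed the clearest rise. Aqp4 was at 228, 220 and 209 CPM in PRDM13-OE retinas with dox, against 133, 143 and 148 CPM in wildtype retinas with dox. It was 54.8% higher (log2 fold change 0.63 ± 0.06 SE, adjusted p = 2.87e-05), and all 3 induced retinas were also above every untreated retina of either genotype (114 to 137 CPM). Car2, whose enzyme interconverts carbon dioxide and bicarbonate, was at 456, 464 and 445 CPM against 524, 501 and 567 CPM. It fell by 14.3% (log2 fold change -0.22 ± 0.05 SE, adjusted p = 0.0167), and the 3 induced retinas were below all 9 others.

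Of the secreted lipid and protein carriers, Clu fell most. It was at 472, 522 and 511 CPM in PRDM13-OE retinas with dox and at 999, 990 and 852 CPM in wildtype retinas with dox, and in untreated retinas of both genotypes at 706 to 935 CPM. The induced retinas were below all 9 others, while untreated retinas overlapped with wildtype retinas with dox. The difference was a fall of 47.0% (log2 fold change -0.92 ± 0.06 SE, adjusted p = 2.28e-06). Apoe was at 886, 928 and 907 CPM against 1256, 1093 and 985 CPM. It fell by 18.4% (log2 fold change -0.29 ± 0.07 SE, adjusted p = 0.0149), but the induced retinas lay within the range of untreated wildtype retinas (835 to 955 CPM). Its direction turned with a covariate over all 12 retinas, to 0.11 with the summed lens level and 0.054 with the summed rod level, neither past the threshold, and without the mouse labelled PRDM13-OE untreated 1 the values were 0.095 and -0.19.

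Vim, the intermediate filament of Müller glia, was at 180, 190 and 185 CPM in PRDM13-OE retinas with dox, and at 318, 298 and 196 CPM in wildtype retinas with dox (log2 fold change -0.55 ± 0.13 SE, adjusted p = 0.0182). The 2 high wildtype values were those of the retinas with the most lens RNA. Without both, which leaves 1 wildtype retina whose spread is assumed to be that of the PRDM13-OE retinas, the log2 fold change was -0.09 (adjusted p = 0.440). With the summed lens level as a covariate over all 12 retinas it was -0.02 (adjusted p = 0.974), and 0.0064 without the mouse labelled PRDM13-OE untreated 1. Untreated retinas were at 170 to 199 CPM, so the PRDM13-OE dox retinas were within the untreated range.

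Of the transcription factors, Sox2 was higher and Sox9 did not pass. Sox2 was at 62.2, 49.2 and 53.8 CPM against 42.9, 46.2 and 39.6 CPM (log2 fold change 0.36 ± 0.09 SE, adjusted p = 0.0181), and every PRDM13-OE dox retina was above every other retina. Sox9 was at 33.3, 31.6 and 26.5 CPM against 34.0, 29.3 and 29.8 CPM. Its log2 fold change was -0.03 (95% interval -0.23 to 0.18, adjusted p = 0.892), and the groups overlapped.

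Several cell type markers differed between these 6 retinas. The 7 rod markers summed to 43101 to 48960 CPM in PRDM13-OE retinas with dox and 58988 to 61103 CPM in wildtype retinas with dox. The 6 cone markers summed to 477 to 519 CPM against 1055 to 1082 CPM, and the 7 microglia and macrophage markers to 47.8 to 55.2 CPM against 37.5 to 45.4 CPM. The 17 lens genes, at least 15 of them detected in each library, summed to 5.04 to 29.3 CPM against 112 to 11284 CPM. The 7 endothelial markers summed to 121 to 143 CPM against 274 to 288 CPM, and the 11 RPE and pigment genes to 106 to 125 CPM against 186 to 199 CPM. The 5 red blood cell genes summed to 0.663 to 1.11 CPM against 29.3 to 72.9 CPM. The 5 astrocyte genes of the nerve fibre layer ranged from 753 to 760.5 CPM against 724 to 788 CPM. The 6 ciliary body and iris genes (179 to 189 CPM against 191 to 208 CPM) and the 5 oligodendrocyte and Schwann cell genes (27.0 to 32.0 CPM against 34.6 to 40.8 CPM) were lower without overlap, and the fibroblast and skeletal muscle genes overlapped. In bulk tissue, fewer cells of a type and less RNA per cell cannot be told apart. Leaving out the 2 lens-rich wildtype retinas left 5 members past the threshold (Aqp4, Clu, Sox2, Slc1a3 and Car2), against 9.96% of genes, in a fit with 1 wildtype retina and a spread taken from the 3 PRDM13-OE retinas. The lens covariate left 2 (Aqp4 and Clu), against 2.44% of genes, and the count was again 2 without the mouse labelled PRDM13-OE untreated 1, against 2.81%. The share of all genes thus fell with the members' count. Lens level did not overlap between these groups, so lens level and group cannot be told apart here. With the summed rod level as a covariate, no member passed by edgeR and only 0.2% of all genes did, so this count says nothing particular about the members. Aqp4 was then at a log2 fold change of 0.60 (adjusted p = 0.512) and Clu at -0.40 (adjusted p = 0.750), and since rod level and group did not overlap, they cannot be told apart here. Without the mouse labelled PRDM13-OE untreated 1, no member passed in that fit either (0.0538% of genes), with Aqp4 at 0.27 and Clu at -0.60. Without single libraries, 2 to 6 members passed, against 7.52% to 11.0% of genes, and Aqp4 and Clu passed each time. Scaled by library size in place of TMM, 5 passed, against 15.5% of genes, and Apoe (log2 fold change -0.20), Slc1a3 (-0.16) and Car2 (-0.13) did not.

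**Figure D2:**
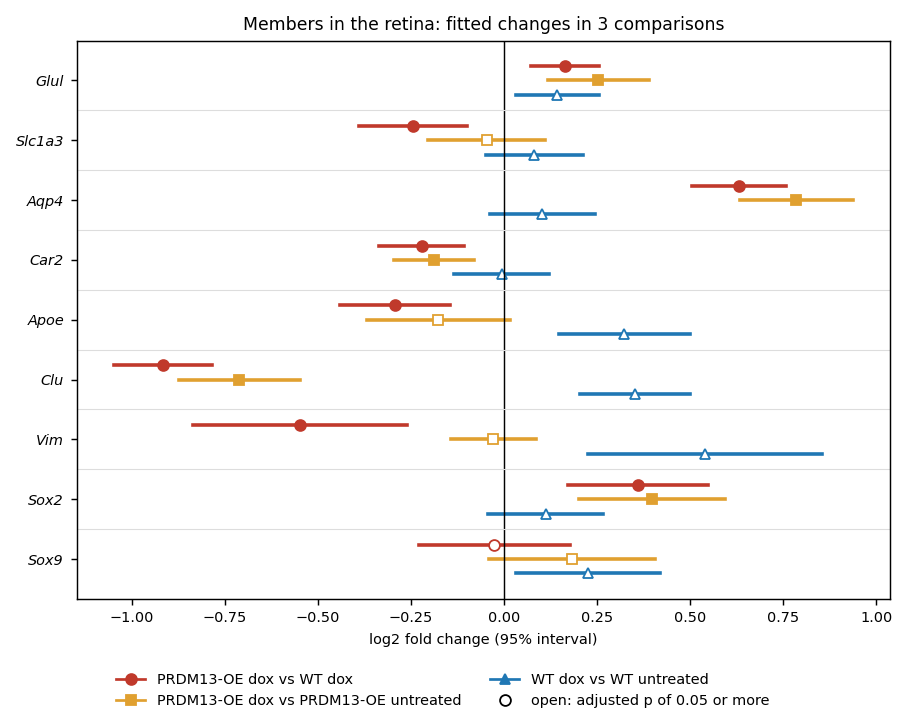
The horizontal axis is the fitted log2 fold change of each member in the retina with its 95% interval, for PRDM13-OE dox against wildtype dox, PRDM13-OE dox against PRDM13-OE untreated, and wildtype dox against wildtype untreated. Filled symbols passed an adjusted p of 0.05. Aqp4 and Clu are filled in both comparisons with induced PRDM13, at 0.63 and 0.78 for Aqp4 and -0.92 and -0.71 for Clu, and no member is filled for dox in wildtype mice.

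Within PRDM13-OE mice, retinas with dox were compared with untreated retinas labelled with the same knock-in. This comparison shares its dox retinas with the one above. Of the 9 members, 5 passed, against 5.0% of 20603 genes tested. Of these, 3 were higher (2.04% of all genes) and 2 were lower (2.96%), and the groups did not overlap for the same 5, against 20.5% of genes. Aqp4 was at 137, 130 and 114 CPM in the untreated PRDM13-OE retinas and 72.3% higher with dox (log2 fold change 0.78 ± 0.07 SE, adjusted p = 1.95e-05). Clu was at 935, 754 and 782 CPM untreated and fell by 38.9% with dox (log2 fold change -0.71 ± 0.08 SE, adjusted p = 8.47e-05). Sox2 was at 43.6, 43.7 and 38.5 CPM untreated and rose by 0.40 on the log2 scale with dox (adjusted p = 0.0220). Glul rose by 0.25 (adjusted p = 0.0363) from 3472, 3211 and 2848 CPM, and Car2 fell by 0.19 (adjusted p = 0.0496) from 507, 526 and 525 CPM. Cell type markers moved with this comparison too. In PRDM13-OE retinas with dox and untreated, the rod markers summed to 43101 to 48960 CPM against 58461 to 64716 CPM, the microglia and macrophage markers to 47.8 to 55.2 CPM against 36.1 to 41.1 CPM, the cone markers to 477 to 519 CPM against 1127 to 1155 CPM, the endothelial markers to 121 to 143 CPM against 233 to 284 CPM and the red blood cell genes to 0.663 to 1.11 CPM against 26.6 to 60.8 CPM. Their part in the member values was not tested.

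The other 4 members did not pass. Vim was at 187 to 191 CPM untreated and its log2 fold change was -0.03 (95% interval -0.14 to 0.09). That of Slc1a3 was -0.05 (-0.21 to 0.11), that of Apoe -0.18 (-0.37 to 0.01) and that of Sox9 0.18 (-0.04 to 0.40). Without the mouse labelled PRDM13-OE untreated 1, the same 5 members passed, against 5.34% of genes, with Aqp4 at 0.83 (adjusted p = 1.70e-05) and Clu at -0.62 (adjusted p = 3.70e-05). Without any 1 of the other 5 libraries, 2 to 4 members passed, against 3.02% to 4.89% of genes. Car2 also lost its call with library size scaling (log2 fold change -0.12) and in a fit of all 12 retinas (-0.19), and Glul with the lens covariate (0.22). Only Aqp4 and Clu passed without PRDM13-OE dox retina 1, without PRDM13-OE dox retina 3 and without PRDM13-OE untreated retina 3, and Sox2 passed beside them without PRDM13-OE dox retina 2.

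In wildtype mice, dox with sucrose against no treatment gave no member past the threshold by edgeR (0 of 9, against 0.00485% of 20631 genes). At an unadjusted p under 0.05 there were 5, all higher with dox, against 9.32% of genes, and DESeq2 called 2, Apoe and Clu, against 0.451% of genes. Clu was at 999, 990 and 852 CPM with dox and 706, 725 and 796 CPM without (log2 fold change 0.35 ± 0.07 SE, adjusted p = 0.155). Apoe was at 1256, 1093 and 985 CPM against 955, 835 and 874 CPM (0.32 ± 0.08, adjusted p = 0.261). Both groups were separated for these 2 members only, against 14.4% of genes. Vim had a log2 fold change of 0.54 ± 0.14 (adjusted p = 0.277), with wildtype dox retina 3 inside the untreated range. Without wildtype dox retina 3, the one with little lens RNA, Apoe, Clu and Vim passed, against 0.909% of genes in that fit. Without retinas 1 and 2 none did, but that fit has 1 retina with dox and takes its spread from the 3 untreated retinas. The 17 lens genes of the untreated wildtype retinas summed to 183 to 875 CPM. With dox, the cone markers were lower without overlap (1055 to 1082 CPM against 1149 to 1233 CPM). Higher without overlap were the microglia and macrophage (37.5 to 45.4 against 32.2 to 36.9 CPM) and nerve fibre layer astrocyte genes (724 to 788 against 668 to 704 CPM). So were the fibroblast (40.2 to 63.7 against 27.9 to 38.6 CPM) and ciliary body and iris genes (191 to 208 against 178 to 185 CPM). Their part was not tested. With the summed lens level as a covariate, the count was also 0, with and without the mouse labelled PRDM13-OE untreated 1.

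No member passed between untreated PRDM13-OE and untreated wildtype retinas (0 of 9 by edgeR, against 0.00484% of 20668 genes). DESeq2 called 0, against 0.0194% of genes, and 1 was at an unadjusted p under 0.05, against 3.76%. The fitted log2 fold changes ran from -0.11 for Slc1a3 to 0.21 for Apoe, and all 9 members overlapped between the groups, while 9.52% of genes did not. Without the mouse labelled PRDM13-OE untreated 1 the count was again 0.

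Whether dox acted differently in the 2 genotypes was tested as an interaction over all 12 retinas. Aqp4 and Clu passed (2 of 9, against 3.03% of 22538 genes). The dox effect on Aqp4 was larger in PRDM13-OE than in wildtype retinas by 0.68 ± 0.10 on the log2 scale (adjusted p = 0.000461). For Clu it was lower by a log2 difference of -1.06 ± 0.11 (adjusted p = 1.58e-05). The rod markers summed to 43101 to 48960 CPM in the PRDM13-OE dox retinas and to 58461 to 64716 CPM in the other 9, and the cone markers to 477 to 519 CPM and 1055 to 1233 CPM, so these levels cannot be told apart from the interaction. The point estimate for Clu was positive in wildtype and negative in PRDM13-OE retinas. Without the 2 lens-rich wildtype retinas, which leaves 1 wildtype retina with dox and a spread taken from the other groups, the differences were 0.61 (adjusted p = 0.0172) and -0.92 (adjusted p = 0.000847), and without the mouse labelled PRDM13-OE untreated 1 they were 0.74 and -0.96. Apoe had a difference of -0.50 ± 0.13 (adjusted p = 0.0514) and Vim of -0.56 ± 0.17 (adjusted p = 0.0887). Both passed without wildtype dox retina 3 and without the filter on low counts. Apoe also passed with DESeq2, with the replicate number as a block, without PRDM13-OE untreated retina 2 and without untreated wildtype retina 1. The difference was 0.29 for Sox2 (adjusted p = 0.269) and 0.11 for Glul (adjusted p = 0.634).

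**Figure D3:**
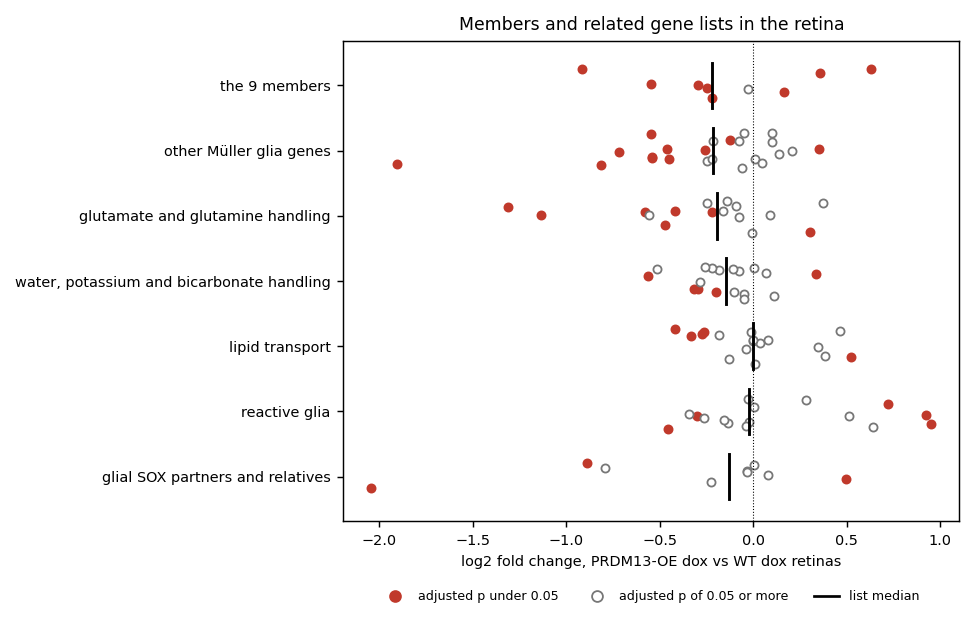
Each point is a gene, placed by its log2 fold change in the retina, PRDM13-OE dox against wildtype dox, on the horizontal axis, in rows for the 9 members and 6 lists of related genes, with a vertical bar at the median. Red points passed an adjusted p of 0.05, and Sox1, with 1 read in the PRDM13-OE dox retinas, is not drawn but counts in its list's median. The medians of the members and of the other Müller glia genes are both at -0.21 to -0.22.

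Other genes of the same pathways were read in the same comparison of retinas with dox, in which 5.01% of all genes were higher and 7.51% were lower. Of 23 other Müller glia genes, 1 was higher and 10 were lower, with a median log2 fold change of -0.21, against 0.01 over all genes tested. Rax, a homeobox factor kept in Müller glia, was the one that rose, to 140 ± 4.45 CPM from 110 ± 11.0 CPM (SD, n = 3). Hes5, a Notch target, fell most, at 1.55, 2.16 and 3.07 CPM against 9.56, 7.29 and 8.69 CPM (log2 fold change -1.90 ± 0.22 SE, adjusted p = 0.000169). Timp3, an inhibitor of matrix metalloproteinases that the RPE also makes, was at 40.0, 52.8 and 55.3 CPM against 90.1, 82.3 and 87.7 CPM (-0.81 ± 0.10).

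Of 16 other genes for glutamate and glutamine handling, 1 was higher and 6 were lower, with a median of -0.19. Slc38a3, a glutamine transporter that works with Glul in glia, was at 237, 238 and 235 CPM against 510, 502 and 547 CPM (log2 fold change -1.13 ± 0.05 SE, adjusted p = 8.40e-08). Its groups were far apart, while those of Glul, the enzyme that makes glutamine, were close and in the other direction. Slc7a11, the cystine-glutamate exchanger, was at 2.76, 6.78 and 6.40 CPM against 11.2, 17.1 and 11.4 CPM (-1.31 ± 0.27). Slc1a2, which encodes another glutamate transporter, moved opposite to Slc1a3, to 307 ± 13.3 CPM from 249 ± 22.7 CPM (0.30 ± 0.06).

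Of 18 other genes for water, potassium and bicarbonate handling, 1 was higher and 4 were lower, with a median of -0.15, so the share that was higher was near the 5.01% of all genes. Atp1b2, a sodium pump subunit found in glia and photoreceptors, rose to 2148 ± 22.9 CPM from 1702 ± 43.8 CPM (log2 fold change 0.34 ± 0.03). Slc4a4, a sodium bicarbonate cotransporter, fell by 0.56 and Slc12a2, a sodium, potassium and chloride cotransporter, fell by 0.32 on the log2 scale. This list shares Kcnj10 and Car14 with the list of other Müller glia genes, and neither passed.

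Of 17 genes for lipid transport and synthesis, 1 was higher and 4 were lower, with a median of -0.0029, and here too the share that was higher was near the 5.01% of all genes. Abca1, which exports cholesterol to apolipoproteins such as Apoe, rose to 34.7 ± 2.20 CPM from 24.2 ± 3.46 CPM (log2 fold change 0.52 ± 0.10). Vldlr, a receptor that binds Apoe, fell by 0.33 on the log2 scale.

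Of 16 reactive glia genes, 3 were higher and 2 were lower, with a median of -0.02. Cebpd, a stress-induced transcription factor, was at 25.0 ± 6.61 CPM against 12.9 ± 2.04 CPM (log2 fold change 0.95 ± 0.17), and Lcn2, a secreted iron-siderophore binder of reactive glia, was at 7.09 ± 1.00 CPM against 3.74 ± 1.30 CPM (0.92 ± 0.22). Nes (nestin) fell by 0.46 and Cp (ceruloplasmin) by 0.30. Gfap, the classical marker of reactive Müller glia, was at 28.5, 48.7 and 34.1 CPM against 39.5, 37.8 and 44.7 CPM, with overlap.

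Of 10 other SOX genes, 1 was higher and 3 were lower, with a median of -0.13. Sox8, a close relative of Sox9, was at 8.34, 7.30 and 6.85 CPM against 28.8, 31.2 and 32.4 CPM (log2 fold change -2.04 ± 0.09 SE), whereas Sox9 did not pass. Sox12 rose by 0.50. Sox1, which also acts in lens fibres, passed with 1, 0 and 0 reads in PRDM13-OE retinas with dox and 67, 79 and 0 reads in wildtype retinas with dox, the 2 high values being those of the lens-rich retinas.

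**Figure D4:**
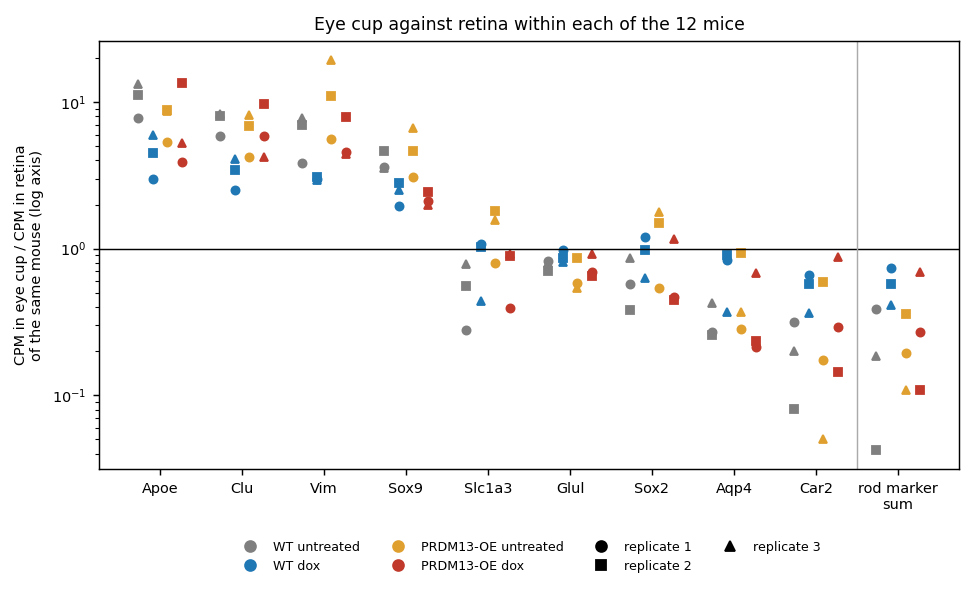
Points give the CPM of each member in the eye cup divided by its CPM in the retina of the same mouse, on a log axis, with colour for the group and shape for the replicate. The right column shows the same ratio for the summed rod markers, which was 0.0426 to 0.740. Apoe, Clu, Vim and Sox9 are above 1 in all 12 mice.

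Which members are also high in the eye cup was read within each mouse and tested in untreated wildtype mice. In that test, 6 of the 9 members passed, all with a log2 fold change past 1, against 61.5% of 21979 genes past the adjusted p and 45.2% as DEGs, so a difference between the tissues is common among all genes. Higher in the eye cup were Apoe, Clu, Vim and Sox9 (4 members, against 32.5% of all genes), and lower were Car2 and Aqp4 (2 members, against 29.0%). The groups were separated for all 9, against 71.2% of genes.

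Apoe was at 7421, 9385 and 11662 CPM in untreated wildtype eye cups and at 955, 835 and 874 CPM in the retinas of the same mice (log2 fold change 3.49 ± 0.24 SE, adjusted p = 2.27e-05). Clu was at 4130, 5817 and 6605 CPM against 706, 725 and 796 CPM (2.97 ± 0.24, adjusted p = 4.27e-05). Vim was at 765, 1184 and 1483 CPM against 199, 170 and 190 CPM (2.69 ± 0.27, adjusted p = 0.000127). Sox9 was at 89.1, 118 and 104 CPM against 24.6, 25.6 and 29.4 CPM (2.04 ± 0.16, adjusted p = 4.47e-05). Within mice of all groups, the eye cup exceeded the retina 3.00-fold to 13.5-fold for Apoe, 2.50-fold to 9.62-fold for Clu, 2.93-fold to 19.3-fold for Vim and 1.97-fold to 6.66-fold for Sox9, in 12 of 12 mice for each. The ranges were the same over the 11 mice without the one labelled PRDM13-OE untreated 1.

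Aqp4 was at 36.9, 32.2 and 56.5 CPM in untreated wildtype eye cups against 137, 124 and 133 CPM in retinas (log2 fold change -1.58 ± 0.22 SE, adjusted p = 0.000591). Car2 was at 170, 40.6 and 111 CPM against 540, 505 and 552 CPM (-2.26 ± 0.44, adjusted p = 0.00311). In all 12 mice both were lower in the eye cup. The ratio of Car2 was above the rod ratio of the same mouse in 6 mice and that of Aqp4 in 8 (6 and 7 without the mouse labelled PRDM13-OE untreated 1).

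Glul, Slc1a3 and Sox2 did not pass between the tissues by edgeR. DESeq2 called 8 members, all but Glul, against 61.9% of genes. Glul was at 2430, 2057 and 2611 CPM in untreated wildtype eye cups and 2944, 2933 and 3281 CPM in retinas (log2 fold change -0.30 ± 0.16 SE, adjusted p = 0.143). It was lower in the eye cup in 12 of 12 mice, at 0.537 to 0.978 of the retina, and its ratio was above that of the rods in every mouse. Slc1a3 was at 85.0, 151 and 241 CPM against 303, 274 and 306 CPM (-0.81 ± 0.35, adjusted p = 0.0758), and Sox2 at 22.5, 15.2 and 34.6 CPM against 38.9, 40.1 and 40.0 CPM (-0.65 ± 0.26, adjusted p = 0.0653). With the mouse as a block, since both tissues came from the same animals, Slc1a3 was at -0.93 (adjusted p = 0.0423) and Sox2 at -0.72 (adjusted p = 0.0360), and 8 members passed, against 54.8% of genes. Without untreated wildtype eye cup 3, both passed too, at -1.30 and -1.06, and without eye cup 1 only Slc1a3 did, at -0.57. Scaling by library size in place of TMM moved the median of all genes from 0.06 to -0.24 in this comparison, and all 9 members then passed with the same directions, against 63.8% of genes, Glul at -0.60.

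The related lists were read in the same tissue comparison, in which 32.5% of all genes were higher in the eye cup and 29.0% were lower. Of the 23 other Müller glia genes, 15 were higher in the untreated wildtype eye cup and 5 were lower (median log2 fold change 1.68, against 0.06 over all genes), and of 16 reactive glia genes 12 were higher and 0 lower (median 2.42). Of the genes for lipid transport, 10 of 17 were higher and 3 lower (median 1.41). Of those for glutamate handling, 4 of 16 were higher and 7 lower, of those for water and ions 8 of 18 were higher and 7 lower, and of the other SOX genes 3 of 10 were higher and 1 lower.

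**Figure D5:**
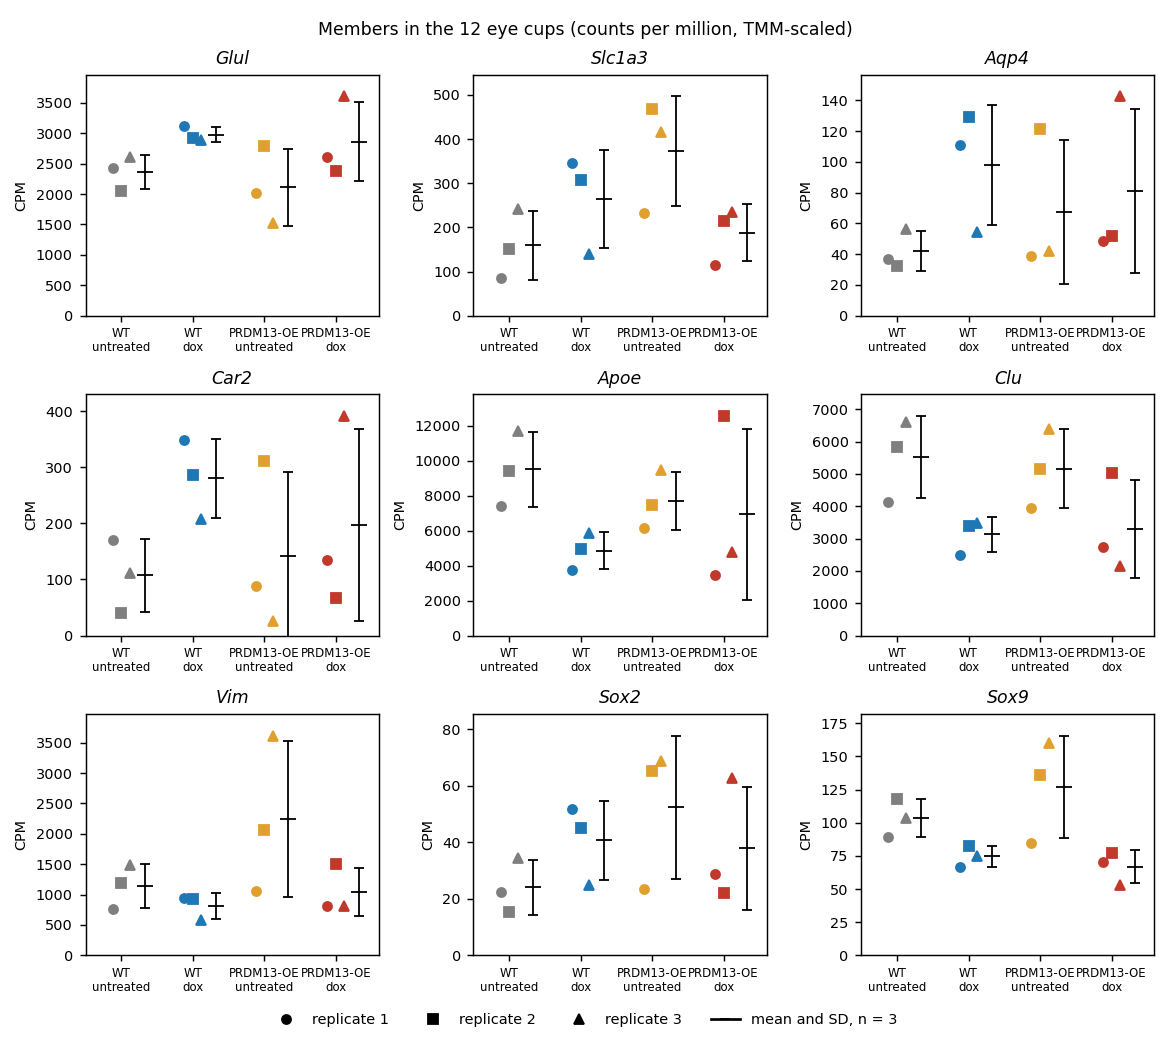
Each panel plots 1 member in the 12 eye cups, in TMM-scaled CPM from 0 on the vertical axis, by group, with a symbol for each replicate and the mean and SD beside it. The replicates of a group spread widely, for example from 48.5 to 142 CPM for Aqp4 in PRDM13-OE eye cups with dox.

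In the eye cup, no member passed between PRDM13-OE dox and wildtype dox mice (0 of 9 by edgeR, against 0.0184% of 21758 genes). DESeq2 called 0, against 0.547% of genes, and 0 were at an unadjusted p under 0.05, against 8.24%. Without PRDM13-OE dox eye cup 3, edgeR again called 0 members, against 10.4% of genes in that fit. In counts simulated with the spread of these eye cups, edgeR called none of 200 planted log2 fold changes of 1, and DESeq2 called 17.5%. The counts of members called thus do not show that the members were unchanged. All 9 overlapped between the groups, while 16.3% of genes did not. Aqp4 was at 48.5, 52.0 and 142 CPM in PRDM13-OE eye cups and 111, 129 and 54.5 CPM in wildtype (log2 fold change -0.19, 95% interval -1.34 to 0.96). Clu was at 2745, 5020 and 2144 CPM against 2497, 3397 and 3484 CPM (0.17, -0.76 to 1.11). The eye cup interval includes the fold change seen in the retina for Aqp4 (0.63), and for Clu it does not reach it (-0.92). Apoe was at 3472, 12529 and 4789 CPM against 3765, 4943 and 5838 CPM (0.61, -0.64 to 1.86). PRDM13-OE eye cup 2, the one with the most Apoe and Clu, had the lowest rod sum (4826 CPM) and the highest RPE and pigment sum (21422 CPM) of its group, and eye cup 3, with the most Aqp4, had the highest rod sum (33773 CPM).

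Of the related lists, no gene passed in this eye cup comparison by edgeR. At an unadjusted p under 0.05 there were 5 of 23 other Müller glia genes, 4 of 16 for glutamate handling, 1 of 18 for water and ions, 3 of 17 for lipid transport, 3 of 16 reactive glia genes and 2 of 10 SOX genes, against the 8.24% of all genes given above. A test of whether the genotype difference with dox was the same in both tissues called no member (0 of 9 by edgeR, against 0.0% of 23678 genes). DESeq2 called 0, against 0.16% of genes, and 2 were at an unadjusted p under 0.05, against 7.17%. These fits took both tissues of a mouse as independent. With the mouse as a block, edgeR again called 0 members, against 0.0% of genes. The log2 difference was 1.12 ± 0.40 for Clu and 1.03 ± 0.41 for Vim, both with an adjusted p of 0.685. Without PRDM13-OE dox eye cup 3, 3 members passed (Aqp4, Car2 and Clu), against 14.7% of genes in that fit.

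In wildtype eye cups, dox against no treatment gave no member past the threshold by edgeR (0 of 9, against 0.0% of 21799 genes), while 5 were at an unadjusted p under 0.05, against 29.9% of genes, and DESeq2 called 5 (Apoe, Aqp4, Car2, Clu and Sox9), against 18.5%. Apoe was at 3765, 4943 and 5838 CPM with dox and 7421, 9385 and 11662 CPM without (log2 fold change -1.05 ± 0.29 SE, adjusted p = 0.0777). Clu was at 2497, 3397 and 3484 CPM against 4130, 5817 and 6605 CPM (-0.90 ± 0.27, adjusted p = 0.0869). Car2 was at 348, 286 and 207 CPM against 170, 40.6 and 111 CPM (1.32 ± 0.46, adjusted p = 0.116), and Aqp4 at 111, 129 and 54.5 CPM against 36.9, 32.2 and 56.5 CPM (1.15 ± 0.35, adjusted p = 0.0906). The groups were separated for 5 members, against 37.2% of genes. Marker sums moved with these groups. The rod markers summed to 24478 to 45228 CPM with dox and 2638 to 23431 CPM without. The RPE and pigment genes summed to 10237 to 22653 CPM with dox and 30887 to 47006 CPM without. With the summed rod level as a covariate over the 12 eye cups, the count was again 0 by edgeR, with and without the mouse labelled PRDM13-OE untreated 1. The part of the RPE and pigment level in the member values was not tested. Untreated wildtype eye cup 1 had the highest rod sum of its group, and also the highest red blood cell sum (3797 CPM) and lens sum (4166 CPM). Without it, 4 members passed (Apoe, Car2, Clu and Sox9), against 13.5% of genes in that fit. Without wildtype dox eye cup 3, Aqp4 passed, against 6.59%.

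Between untreated eye cups of the 2 genotypes no member passed (0 of 9 by edgeR, against 0.0% of 21588 genes, and 0 by DESeq2, against 0.0139%), and 2 were at an unadjusted p under 0.05, against 1.87%. Between PRDM13-OE eye cups with and without dox none passed (0 of 9 by edgeR, against 0.0139% of 21604 genes, and 0 by DESeq2, against 0.25%), and 1 was at an unadjusted p under 0.05, against 4.14%. The groups did not overlap for 0 members between untreated eye cups, against 5.98% of genes, and for Sox9 between PRDM13-OE eye cups, against 9.39%. The interaction of genotype and dox in eye cups also called none (0 of 9 by edgeR, against 0.0% of 23837 genes, and 0 by DESeq2, against 0.113%), and 1 was at an unadjusted p under 0.05, against 6.4%. Without the mouse labelled PRDM13-OE untreated 1, all 3 counts were again 0, against 1.42% of genes between untreated eye cups, 0.019% between PRDM13-OE eye cups and 0.0% for the interaction.

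The genes whose levels followed each member most closely over the 12 retinas were listed by Pearson's r of log2(CPM + 1) among 10026 genes with a mean of at least 10 CPM. The 12 retinas share the 4 groups and their composition, so these values are descriptions only. Without the retina labelled PRDM13-OE untreated 1, the r of these 18 pairs ran from 0.869 to 0.985 and moved by at most 0.0205. For Aqp4 they were Svip (r = 0.981) and Hpcal4 (0.981), and for Clu they were Pon2 (0.971) and Me2 (0.957). Vim was followed by Nid1 (0.977) and Arvcf (0.975), Car2 by Lynx1 (0.967) and Fbxw7 (0.956), and Sox2 by Mlc1 (0.954), which encodes a membrane protein of glial endfeet, and Mrpl49 (0.942). Slc1a3 was followed by Gbe1 (0.940) and Nynrin (0.934), Apoe by Lamb2 (0.914) and Rpl36a (0.906), Glul by Ddr1 (0.903) and Uhmk1 (0.894), and Sox9 by Slc22a17 (0.868) and its relative Sox6 (0.864).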

How the data were processed

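PolyA RNA from the neural retina and eye cup of 12 mice was sequenced by Novogene. Per the labels, CASAVA and HISAT2 were used with GRCm39. The counting tool and annotation are not given in the sources used here, nor is whether counting used strand. The authors deposited raw read counts per gene and FPKM values, which divide counts by gene length and by a constant for each library. That constant was not the total of counted reads, for example 1.45e+07 against 16321112 in untreated wildtype eye cup 2. The deposited columns of group means, fold changes and p-values of the authors' own comparisons were not used.

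Counts were scaled with TMM factors and fitted with edgeR 4.0.16 (quasi-likelihood test, R 4.3.3), over the libraries of the groups compared, for genes with at least 10 counts summed over those libraries. P-values were adjusted by the Benjamini-Hochberg method over all genes tested, and a gene was called changed at an adjusted p under 0.05. SE and 95% intervals came from the same test. FPKM values were used only to order levels between genes. Libraries held 15825059 to 24908314 counts, so each member was covered by 234 reads or more. No 2 libraries of a group were copies (lowest chi-square per gene 3.80). Each group held 3 mice, and p-values rest on the spread between them, which edgeR moderates towards that of all genes.

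The scripts were tested on simulated counts with 200 planted log2 fold changes of 1 among otherwise unchanged genes. Of these, edgeR recovered 99.5% in the retina comparison of genotypes with dox and 89.5% in the retina interaction. In the same eye cup comparison and between the tissues it recovered 0%, where DESeq2 recovered 17.5% and 68%. The measured tissue comparison differed from this setting, since 61.5% of genes passed, so the simulation does not describe it. Alternatives were DESeq2 1.42.0, library size scaling, no filter, robust fitting, all 12 libraries of a tissue in 1 fit, marker covariates, a replicate block and leaving out each library. Retina and eye cup of 1 mouse are paired by the labels, and same-numbered libraries of untreated wildtype mice deviated together (r of 0.116 to 0.171 over 10955 genes, across genes), while those of the dox mice gave r of -0.028 to 0.200, not above 0.1 in every pair. Between the other groups, mice differ. The members and gene lists were chosen with earlier results of these data known. Named list genes are the 2 largest rises and 2 largest falls per list among genes past the threshold in the PRDM13-OE dox against wildtype dox comparisons, and Gfap, Kcnj10 and Car14 are named outside this rule, with their values known. One gene that this rule names is not reported here. The likeness genes are the 2 with the highest r for each member.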

Additional observations from a re-analysis of the deposited data

Results flagged for a closer look

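For 2 members the dox effect in the retina differed between the genotypes in a test of the difference itself (edgeR's quasi-likelihood test of the interaction, over 12 retinas). For Aqp4 the log2 difference was 0.68 ± 0.10 (SE, adjusted p = 0.000461): the log2 fold change with dox was 0.78 in PRDM13-OE and 0.10 in wildtype retinas. For Clu it was -1.06 ± 0.11 (adjusted p = 1.58e-05), with log2 fold changes of -0.71 in PRDM13-OE and 0.35 in wildtype retinas, of which only the first passed the threshold. Leaving out any 1 of the 12 libraries gave 0.62 to 0.74 for Aqp4 and -1.13 to -0.96 for Clu. The rod markers summed to 43101 to 48960 CPM in the PRDM13-OE dox retinas and to 58461 to 64716 CPM in the other 9 retinas, so rod level and the interaction cannot be told apart.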

How the results depend on the processing

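For PRDM13-OE against wildtype retinas with dox, 8 members passed, against 12.5% of all genes. The count was 5 with library size scaling (15.5% of all genes), 2 with the lens covariate (2.44%) and 6 with all 12 retinas in 1 fit (8.52%, Glul and Apoe lost). It was 7 with robust fitting (14.1%, Vim lost), 0 with a log2 fold change past 1 required as well (2.41%), and 2 to 6 without single libraries (7.52% to 11.0%). The fit without the 2 lens-rich wildtype retinas was chosen after seeing the data and leaves 1 wildtype retina. In other fits so chosen, the count was 0 with the rod covariate (0.2%). Without the mouse labelled PRDM13-OE untreated 1, it was 2 with the lens covariate (2.81%) and 0 with the rod covariate (0.0538%). For PRDM13-OE retinas with dox against untreated, where 5 passed (5.0% of genes), it was 0 with the fold cutoff and 3 with the replicate block (4.48%). The count was 4 with library size scaling (5.58%), with all 12 retinas (4.83%) or with the lens covariate (4.99%). It was 2 to 5 without single libraries (3.02% to 5.34%). For dox in wildtype retinas, where none passed (0.00485% of genes), it was 2 with DESeq2 (0.451%) and 4 without the filter on low counts (2.07%). It was 1 with robust fitting (0.126%) and 0 to 3 without single libraries (0.0% to 0.909%). The retina interaction, with 2 (3.03% of genes), gave 1 with the fold cutoff, 4 without the filter (4.64%) and 2 to 4 without single libraries (2.03% to 3.06%). Dox in wildtype eye cups, with 0, gave 5 with DESeq2 (18.5%), 1 without the filter (5.52%) and 0 to 4 without single libraries (0.0% to 13.5%). The interaction of genotype and tissue in dox mice, with 0, gave 0 to 3 without single libraries (0.0% to 14.7% of genes). In the first of these comparisons, Apoe turned to a log2 fold change of 0.11 with the lens covariate and 0.054 with the rod covariate. With the lens covariate and without that mouse, Glul turned to -0.021, Apoe to 0.095, Vim to 0.0064 and Sox9 to 0.00014. Sox9, not called, was at 0.0627 with library size scaling, 0.021 without the lens-rich retinas and -0.10 to 0.0629 without single libraries. The causes were not tested. Replicate numbers did not pair the mice of different groups, and not every sample correlated best with its own number. With the replicate block, 8 members passed in that first comparison (12.4% of genes) and 8 between the tissues (54.8%). Of the alternative values for single genes, 290 kept direction and side of the threshold, 70 lost the call, 10 gained it and 10 changed sign.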
